A study of Mus musculus with 14 samples.

Results

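Small structured non-coding RNAs are short transcripts that work as folded RNA inside protein particles and are not translated. The 5 described here, Rny1, Rn7sk, Vaultrc5, Scarna17 and Rnu11, were taken by gene name from the deposited table, in which they make up 5 of 9558 rows. They were chosen with their levels in these cells known, so their levels, detection and spread are given as a description, with no test.

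The table covers 14 single Tomato-positive cells of adult bone, taken from Prrx1-CreERT;Tomato mice on a C57BL/6 background. Tamoxifen activates a Cre recombinase driven by the Prrx1 promoter, which turns on the red Tomato reporter for good, so red marks cells with that promoter active during dosing and also their progeny. Every cell came from mice given tamoxifen at 2 mg per 30 g of body weight daily for 3 days. Tibiae, radii and ulnae were flushed of marrow and digested, and red cells were sorted and picked singly under a microscope. The cells form 1 group and the labels name no animal, so they count as 1 sample and no test between samples was possible.

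Each member belongs to a well-known class of RNA. Y RNAs such as Rny1 bind the Ro60 and La proteins and take part in RNA quality control and DNA replication. Rn7sk encodes 7SK, which holds the elongation kinase P-TEFb inactive and so restrains transcription by RNA polymerase II. Vaultrc5 encodes the RNA of the vault, a large hollow cytoplasmic particle. Scarna17 is a small Cajal body-specific RNA, a class that guides chemical modification of spliceosomal RNAs. Rnu11 encodes U11, which recognises the 5′ splice site of the rare introns removed by the minor spliceosome.

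The annotation placed every member outside protein-coding genes. In GRCm38 (GENCODE M21), Rny1 (ENSMUSG00000065701) lies at chr6:47788069-47788180 on the minus strand and is 112 nt long. Its relative Rny3 lies 6343 bases away on the plus strand, at chr6:47781624-47781725. Rn7sk (ENSMUSG00000065037) lies at chr9:78175303-78175633 on the minus strand and is 331 nt long. Rnu11 (ENSMUSG00000077323) lies at chr4:132270080-132270213 on the minus strand, is 134 nt long and overlaps the lincRNA gene Gm28872 on the other strand. Vaultrc5 (ENSMUSG00000065145) is 143 nt long and Scarna17 (ENSMUSG00000088689) 79 nt. No other gene overlaps Rny1, Rn7sk, Vaultrc5 or Scarna17 in that annotation. Gene types were misc_RNA for Rny1, Rn7sk and Vaultrc5, snRNA for Rnu11 and scaRNA for Scarna17.

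The sequences below are shown because the RNAs' own features, and not protein sequence, define these genes. All are GENCODE M21 transcripts (GRCm38), written 5′ to 3′ on the RNA's strand with T for U. In the 2 Y RNAs, capitals mark the 4 runs of at least 6 aligned identical bases. In Rnu11 they mark the match to the Sm site, the U-rich stretch on which the Sm protein ring assembles, and in the first 100 bases of Rn7sk they mark GATC, the element repeated in the hairpin that binds Hexim1.
Rny1: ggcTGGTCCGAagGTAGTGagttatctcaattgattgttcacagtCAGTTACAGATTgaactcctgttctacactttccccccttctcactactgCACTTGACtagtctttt
Rny3: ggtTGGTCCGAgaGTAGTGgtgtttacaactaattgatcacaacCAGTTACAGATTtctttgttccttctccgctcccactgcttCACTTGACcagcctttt
Rnu11: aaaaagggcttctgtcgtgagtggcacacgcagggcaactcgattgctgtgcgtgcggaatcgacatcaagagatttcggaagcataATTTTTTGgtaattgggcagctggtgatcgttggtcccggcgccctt
Rn7sk: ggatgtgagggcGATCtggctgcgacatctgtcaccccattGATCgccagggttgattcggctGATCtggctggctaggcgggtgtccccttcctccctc

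Rny1 and Rny3 were identical at 80 of 112 aligned positions (71.4%). Their longest shared run was 12 bases, and others lay near both ends, which in Y RNAs pair into the stem that Ro60 binds. The Sm-type motif, searched on the RNA strand as ATTTTG with 4, 5 or 6 T, occurred once in Rnu11, at bases 88 to 95. Among annotated small RNA transcripts of 100 to 170 nt, 4.26% held it. GATC occurred 3 times in Rn7sk, starting at bases 13, 42 and 64. Of 4689 annotated transcripts of 300 to 360 nt, 9.15% held as many. Runs of T at the 3′ end, where RNA polymerase III stops, were 4 bases long in Rny1 and Vaultrc5 and 3 in Rn7sk. Rnu11, a polymerase II transcript, ended in 2 T, and Scarna17 in 0.

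The kit used for these libraries primes on stretches of A, which were short in the members. The longest A run was 5 bases in Rnu11, 3 in Rn7sk and 2 in the other members, and the polyadenylation signal AATAAA was in 0 of the 28 rows annotated as small RNAs. For comparison, 40.5% of annotated protein-coding transcripts had AATAAA in their last 50 bases. The label "structured" was checked by folding each RNA in silico with RNAfold. Predicted minimum free energies were -112 kcal/mol for Rn7sk, -54.2 for Vaultrc5, -51 for Rnu11, -34.3 for Rny1 and -17.7 for Scarna17. In those structures, between 59.7% (Rnu11) and 64.3% (Vaultrc5) of the bases were paired.

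Near-identical copies limit how surely reads can be assigned to these genes. Among annotated non-coding transcripts, Rny1 had 2 other genes at 90% identity or more over 90% of its length, Rnu11 had 2, Vaultrc5 had 1, and Rn7sk and Scarna17 had 0. At 80% identity or more over at least 50% of the length there were 34 copies of Rn7sk, 14 of Rny1, 5 of Rnu11, 1 of Vaultrc5 and 1 of Scarna17. The counting of reads shared with copies was not stated in the sources used here, so the levels of all 5 members are uncertain by what the copies could add or take. Unannotated copies were not analysed here.

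Each level below is a log2 value of quantile-normalized FPKM, that is, read fragments per kilobase of transcript per 1000000 mapped, on a log2 scale and with the same distribution of values set in every cell. A level therefore ranks a gene within its cell. Between 7304 and 8027 rows were above 0 per cell, depth is unknown, and 0 means only that a gene is listed at 0. Detected means at or above a level of 1, the value of log2(FPKM + 1) at an FPKM of 1. Over all 9558 rows, 51.7% were detected in at least 7 of the 14 cells and 15.8% in every cell. Among the 5 members these counts were 4 and 2, from which nothing is read, since the levels chose the members. Division by length raises these rows against the median row, whose annotated exon length was 4402 nt. The cells were also divided into 2 sets, a number fixed for the division, by which rows were at 0. Cells 3, 4, 11, 12 and 13 formed one and the other 9 cells the other. These sets were defined from the 5052 other rows above 0 in some cells only, and are not groups of the labels.

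Vaultrc5, which lies at chr18:36801866-36802008 on the plus strand, had the highest median of the members and was detected in all 14 cells. Its lowest level was 5.89, its median 9.84 and its highest 13.82, with an SD of 3.00. It stood at 13.82 in cells 1 and 7, 13.56 in cell 6, 12.96 in cell 8 and 12.77 in cell 4, and it was among the 10 highest rows of each of these 5 cells. The next cell was 5, at 10.29, and cells 3 and 11 were lowest, at 5.89. Levels spread over 7.93 log2 units, with no cell at 0. By mean level it ranked 62nd of all rows.

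Rn7sk, the 7SK gene, was also detected in all 14 cells (100%, exact 95% interval 76.8% to 100%, as for Vaultrc5). The lowest level was 4.38 in cell 3, the median 8.18 and the highest 14.58 in cell 6, with an SD of 2.38. In cell 6 it was the highest row of the table, and no other cell passed 10.56, the level of cell 7. Apart from cells 3, 6 and 7, its levels lay between 6.41 and 9.85. Without cell 6 the SD was 1.65.

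Rny1 was split between cells at 0 and cells at a high level. The share of cells with it was 9 of 14 (64.3%, exact 95% interval 35.1% to 87.2%), with a median of 8.35 over all cells. The 9 positive cells, 1, 2, 4, 5, 6, 7, 8, 10 and 11, held between 8.11 (cell 1) and 12.07 (cell 11), with a median of 9.54 and an SD of 1.28. Cells 3, 9, 12, 13 and 14 were at 0. No cell had a level between, so the count was 9 at every detection threshold tried.

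Rnu11, the U11 gene, was likewise detected in 9 cells and at 0 in 5. Cell 6 held 13.82, the second highest row of that cell, and the other positive cells held between 5.08 (cell 12) and 8.09 (cell 2). Its median over all cells was 5.24. Cells 3, 4, 5, 11 and 13 were at 0. Rnu11 and Rny1 were both detected in 6 cells and both at 0 in cells 3 and 13.

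Scarna17, at chr18:74778391-74778469 on the minus strand, was detected in 3 cells (21.4%, exact 95% interval 4.66% to 50.8%). It was at 13.82 in cell 2, the second highest row of that cell, at 7.80 in cell 9 and at 7.32 in cell 11. The remaining 11 cells were at 0, which set its median. Cell 2 was the only cell in which all 5 members were detected. In 7 cells 4 members were detected, in 4 cells 3, and in cells 3 and 13 only Rn7sk and Vaultrc5.

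**Figure D1:**
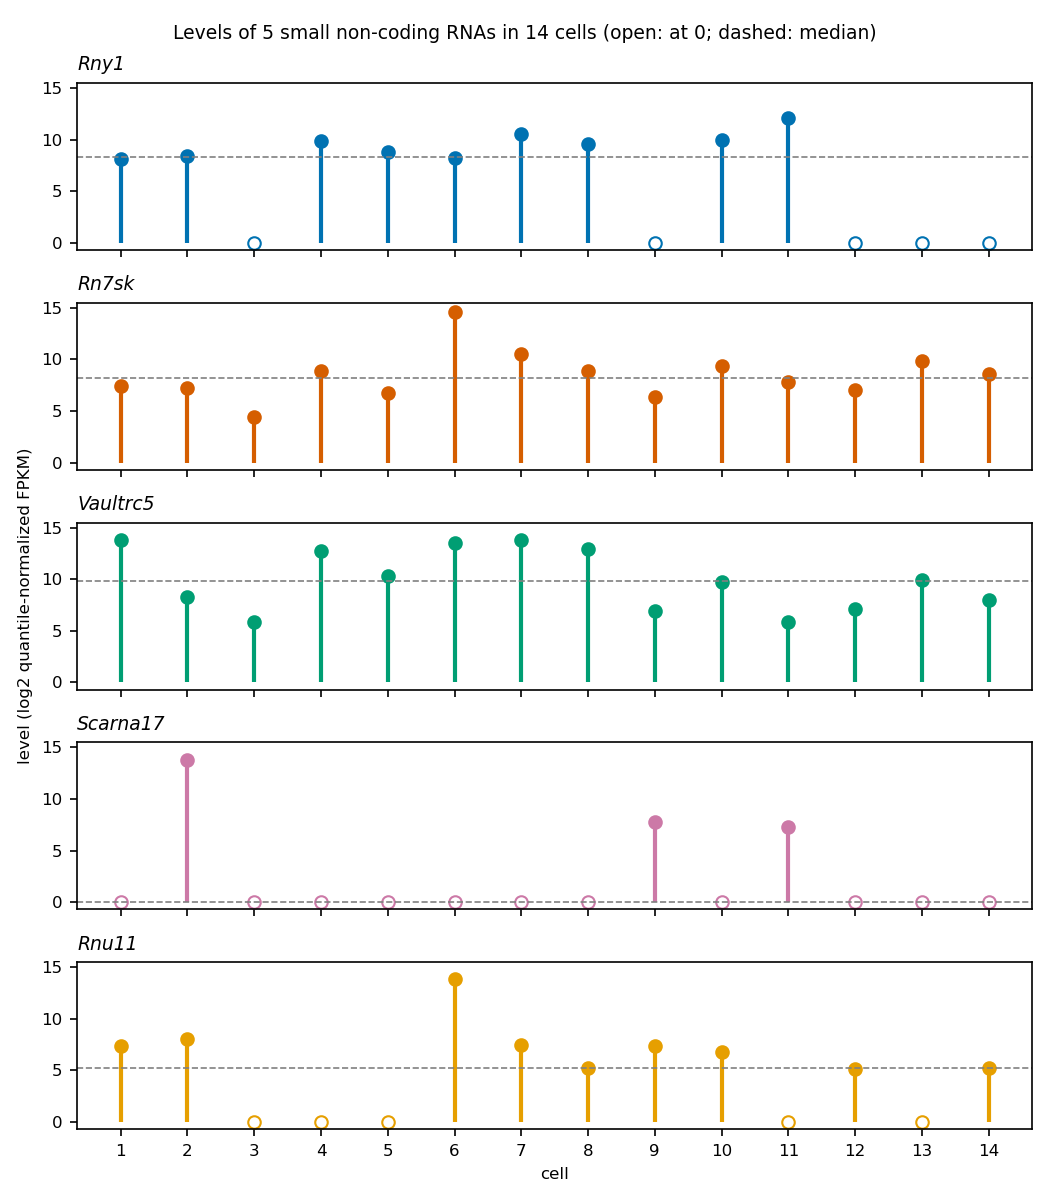
Level of each member (log2 quantile-normalized FPKM) in cells 1 to 14, 1 panel per gene, with open points at 0 and the median dashed. Vaultrc5 and Rn7sk were above 0 in all 14 cells, Rny1 and Rnu11 in 9 and Scarna17 in 3, and cell 6 held the highest Rn7sk and Rnu11.

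In order of median level the members ran Vaultrc5 (9.84), Rny1 (8.35), Rn7sk (8.18), Rnu11 (5.24) and Scarna17 (0). With the division by length undone, Rn7sk (6.60) came before Rny1 (5.22). Vaultrc5, Rny1 and Rn7sk lay closer to one another than the SD of any of them over the cells, whereas Rnu11 and Scarna17 lay further apart than either's SD. Of the whole table, 0.366% of rows were at 0 in at least 1 cell and at 5 or more in every other cell. Rny1, Rnu11 and Scarna17 were 3 of these 35 rows. Only 3 of the 35 were above 0 in at least 7 cells, namely Rny3, Rnu11 and Rny1, whereas 28 were above 0 in a single cell.

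By SD over the cells, Rny1 (4.84) ranked 2nd, Scarna17 (4.35) 3rd and Rnu11 (4.22) 4th of all rows, behind Rny3 (5.38). Vaultrc5 ranked 209th and Rn7sk 1614th. This order depended on the division by length. When it was undone with annotated exon lengths, the SD of Rny1 was 3.32 and its rank 407th, and Rnu11 (3.05) and Scarna17 (2.93) ranked 931st and 1332nd. Vaultrc5, by mean level on that scale, ranked 943rd and Rn7sk 1110th, against 218th for Rn7sk as deposited. The SDs of Rn7sk (2.36) and Vaultrc5 (2.96) were close to the deposited ones, and both genes were above 0 in all 14 cells. Their ranks by SD still fell, to 4265th for Rn7sk and 1222nd for Vaultrc5.

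**Figure D2:**
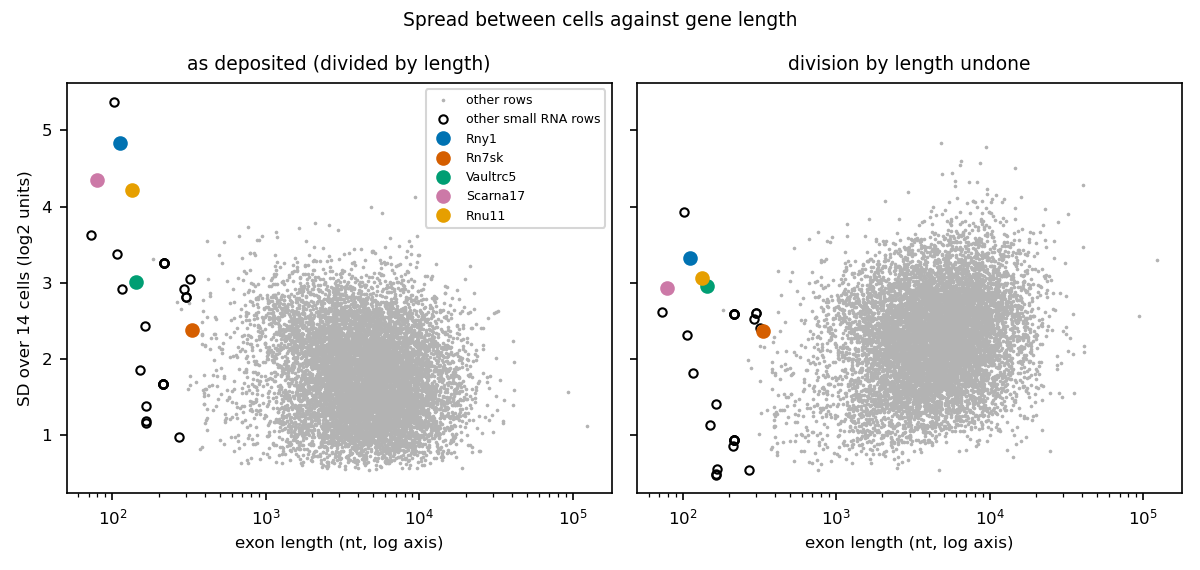
SD over the 14 cells (log2 units) against annotated exon length (nt, log axis) for each row with a length, as deposited and with the division by length undone. Colours mark the members, black rings the other small RNA rows and grey points the remaining rows; Rny1, Scarna17 and Rnu11 lie above nearly all rows at left and within the range of longer genes at right.

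Cell 6 stood apart in these RNAs. Its 3 highest rows were Rn7sk, Rnu11 and Vaultrc5, and the 5 members together made up 7.95% of its summed level on the linear FPKM scale. The median over the 14 cells was 0.565%, the lowest share 0.0121% in cell 3 and the highest outside cell 6 2.73% in cell 7. Because every cell was given the same distribution of values, these shares restate ranks within a cell and are not shares of its reads. With the division by length undone, the same rows of cell 6 ranked 65th, 311th and 345th. Cell 6 also held the highest mean of the 6 measured neutrophil markers, 10.82, against a median of 5.40 and a lowest mean of 3.06 over the cells. In it Mpo stood at 11.25 and Elane at 8.13. These granule genes were the 2 markers of that list listed at 0 in some cells, and 4 of the 6 were detected in at least 7 cells. Camp, Ngp, Ltf and Retnlg stood at 10.64, 12.14, 10.50 and 12.28 in cell 6. All were higher in cell 14, at 11.97, 12.48, 11.02 and 14.58. Cell 11 was also higher than cell 6 in Camp, Ngp and Retnlg, but not in Ltf. The mean of the 6 pan-leukocyte markers in cell 6 was 5.50, against a median of 3.37, with Tyrobp at 11.67, Cd52 at 10.66, Fcer1g at 7.57, Laptm5 at 1.57, Coro1a at 1.02 and Ptprc at 0.50. The mean of the 7 measured osteoblast markers was 4.90, against a median of 2.10. Ifitm5 stood at 11.72 and Runx2 at 6.46, both the highest of the 14 cells. The others were Spp1 at 7.76, Ibsp at 7.25, Alpl at 0.61, Sp7 at 0.52 and Dmp1 at 0. All 10 fibroblast matrix markers were detected in at least 7 of the 14 cells, and their mean in cell 6, 9.18, lay close to the median of 9.04. The part of these markers in the levels of Rn7sk and Rnu11 was not tested.

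Cells 11 and 14 had the highest means of the 6 pan-leukocyte markers, 9.28 and 9.51, against 1.16 to 6.66 in the other 12 cells. The macrophage mean was highest in cell 14, at 10.71. In cell 14 Rny1 and Scarna17 were listed at 0, and its members made up 0.101% of the summed level. Cell 11 had the highest Rny1 (12.07) and 1 of the lowest Vaultrc5 levels. Without these cells the medians of Rny1, Rn7sk and Vaultrc5 were 8.35, 8.15 and 10.12, each within 0.3 of the value over 14 cells, and that of Rnu11 was 6.00 against 5.24.

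**Figure D3:**
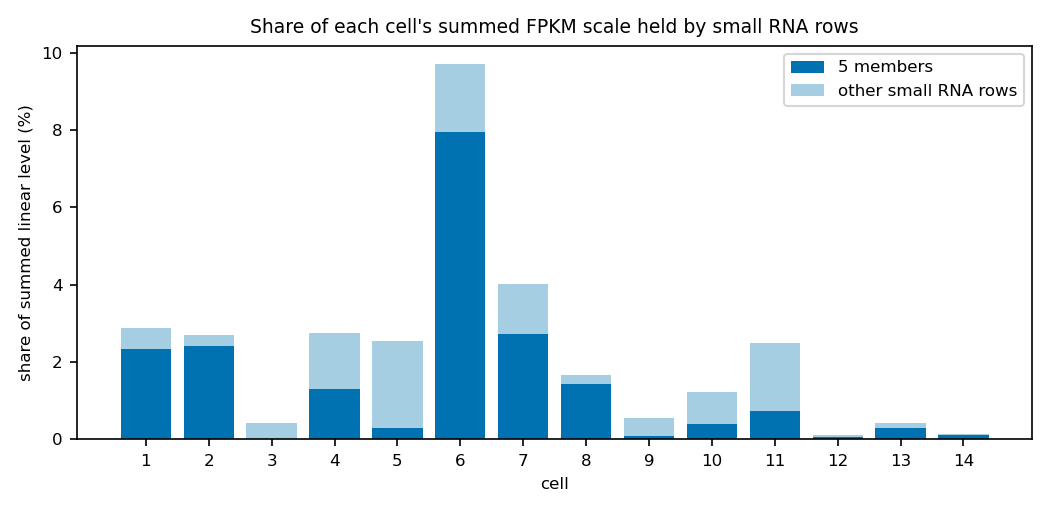
Share of each cell's summed linear level (%) held by the members (dark) and by the other rows annotated as small RNAs (light), for cells 1 to 14. Cell 6 reached 9.70% for all small RNA rows, and cells 12 and 14 stayed at 0.115% and 0.132%. The shares follow from ranks within each cell, since all cells have the same distribution of values.

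Detection of the members was set beside the sets of cells defined by which other rows were at 0. Of the 9 cells in the larger set, 8 had Rnu11 above 0, and of the 5 in the smaller only cell 12 did, at 5.08. Rny1 was above 0 in 7 of these 9 and 2 of these 5 cells, and Scarna17 in 2 of 9 and 1 of 5. Vaultrc5 had medians of 10.29 (larger set) and 7.09 (smaller set), and Rn7sk of 8.54 and 7.82. Rows above 0 per cell numbered 7304 to 7943 among the 9 cells and 7503 to 8027 among the 5. The origin of the sets was not tested, and the share of all rows split as far as Rnu11 was not examined. Some rows must follow the sets, since rows at 0 in some cells defined them, and no result about Rnu11 is read from this split.

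The members were compared pair by pair over the 14 cells, which share the normalization and differ in unknown depth. Spearman's rank correlation is given as a description only. It was highest for Rn7sk and Vaultrc5, at 0.60 (0.55 without cell 6), and lowest for Vaultrc5 and Scarna17, at -0.51, with Scarna17 at 0 in 11 of the 14 cells. For Rny1 and Rnu11 it was 0.03, and for Rny1 and Rn7sk 0.42. The remaining pairs lay between -0.38 and 0.42.

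Other rows annotated as small RNAs were set beside the members. The annotation lists 6084 genes of these types, of which 28 had a row, including 8 of 1383 snRNA genes, 1 of 51 scaRNA genes and 0 of 2202 miRNA genes. The choice of rows for the table was not stated in the sources. Among the 28, 18 (64.3%) were detected in at least 7 cells, but 4 of these were members and 8 were Rnu3b rows with repeated values. Likewise, 7 (25%) were at 0 in some cells and at 5 or more in all others, of which 3 were members. No contrast with all rows is drawn from these counts. In 8 of the rows, those of the U3 genes named Rnu3b, values were the same to 2 decimals as in another row, and the 28 rows held 22 distinct patterns.

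Rny3, the neighbour and relative of Rny1, was present in 10 cells and had a median of 10.75 and a highest level of 13.22. Like Rny1 it was highest in cell 11 and at 0 in cells 3, 13 and 14. It was detected together with Rny1 in 8 cells. In cell 6 Rny3 was at 0 with Rny1 at 8.25, and in cells 9 and 12 Rny3 was at 11.52 and 6.72 with Rny1 at 0. Their rank correlation was 0.71 (0.59 without cells 11 and 14). The gene on the other side of Rny1, Pdia4, was detected in 8 cells, with a rank correlation of 0.37.

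Rnu12, the U12 RNA that works with U11 in the minor spliceosome, was detected in cell 11 alone, at 6.91, where Rnu11 was at 0. Rnu6, a U6 gene, was detected in 11 cells and highest in cell 6, at 11.49, the cell with the highest Rnu11 and Rn7sk. The RNA of the 7SL genes Rn7s1 and Rn7s2 is the scaffold of the signal recognition particle. These genes were also highest in cell 6, at 11.55 and 11.52, and next highest in cell 3, at 9.51 and 9.53. Rank correlation with Rn7sk was 0.02 for Rn7s1 and 0.46 for Rnu6, and with Rnu11 it was -0.23 and 0.07. Rpph1, the RNA of ribonuclease P, was highest in cell 3, at 9.38, the cell with the lowest Rn7sk. It was at 0 in 8 cells, among them cells 1, 7 and 8, where Vaultrc5 was high. In cells 4 and 6, where Vaultrc5 was high too, Rpph1 was detected, at 5.28 and 2.78. Its rank correlation with Vaultrc5 was -0.49.

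**Figure D4:**
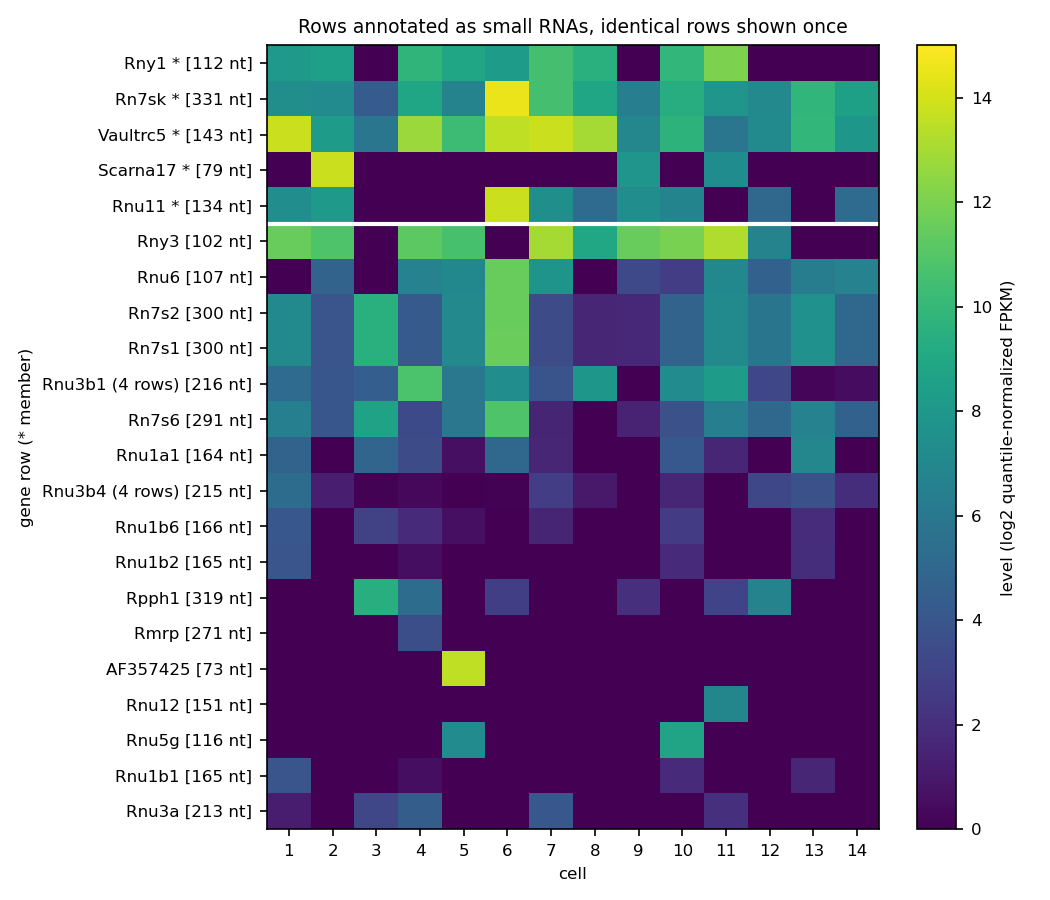
Levels (colour, log2 quantile-normalized FPKM) of the rows annotated as small RNAs in cells 1 to 14, the members above the white line and the other rows below it in order of their median, with transcript length in nt. Rows with the same values are shown once. Rn7sk, Rnu11, Vaultrc5, Rnu6 and the 7SL rows are bright in cell 6, and Rpph1 and the 7SL rows in cell 3.

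Genes for the proteins of each particle were examined from lists of known partners. Over all protein lists, 124 of 153 genes had a row, of which 74 (59.7%) reached detection in 7 cells or more, against 51.7% of all rows. The count was 114 above 0 and 33 at an FPKM of 10 or more. The median of their medians was 1.38, against 0.96 over all rows.

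Of 10 measured Y RNA partners, 9 reached that breadth and 6 were found in every cell. Ssb, which encodes La, had a median of 6.96 (2.29 to 8.37), and the nucleolin gene Ncl had 7.56. Trove2, the gene of Ro60, was lower, with a median of 0.89, detected in 7 cells and highest in cell 2 at 5.64. Of the 9 cells with Rny1, 4 had Trove2 detected, as did 3 of the 5 cells without. In cell 11, which had the highest Rny1, Trove2 was at 0.45. The rank correlation with Rny1 ranged from -0.42 (Ybx1) to 0.44 (Ptbp1) over the 10 partners.

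For the 7SK particle, 9 of 10 measured genes reached 7 cells. The P-TEFb genes Cdk9 and Ccnt1 had medians of 4.22 and 3.94, in 12 and 14 cells. Hexim1, the inhibitor that 7SK brings to P-TEFb, had a median of 1.39 and was highest in cell 3, at 6.63, where Rn7sk was lowest. Larp7, which binds the 3′ end of 7SK, had a median of 1.40 and was at 0 in cell 6, where Rn7sk was highest. It was highest in cell 7 (7.55) and next in cell 13 (4.66), where Rn7sk was at 10.56 and 9.85. The rank correlation with Rn7sk ran from -0.43 (Cdk9) to 0.28 (Ccnt1), and was -0.12 for Hexim1 and 0.25 for Larp7. Of 12 measured genes of polymerase II pausing and release, 6 were detected in at least 7 cells, Supt4a with a median of 7.80.

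Of 4 measured vault protein genes, 2 were detected in all 14 cells. Srsf2, a splicing factor gene on that list, had a median of 6.95 (2.44 to 10.30). Mvp, the major vault protein that builds the shell, had a median of 2.34 (1.09 to 5.23), highest in cell 14. Parp4, the vault poly(ADP-ribose) polymerase, was found in 6, with a median of 0.74. The RNA methyltransferase gene Nsun2, whose product modifies vault RNA, was detected in 5. Over the cells, rank correlation with Vaultrc5 was -0.08 for Mvp, -0.04 for Parp4, 0.56 for Srsf2 and 0.73 for Nsun2.

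For Scarna17, proteins of both kinds of guide RNA particle and of the Cajal body were examined. All 4 box C/D core genes were present in 7 cells or more, among them the methyltransferase gene Fbl (fibrillarin) with a median of 1.73 and Nop58 with 4.96. Of 5 measured box H/ACA genes, 4 were, including the pseudouridine synthase gene Dkc1 with a median of 1.38. Of 9 Cajal body and SMN complex genes, 4 were. Wrap53, which carries scaRNAs to the Cajal body, was detected in 3 cells, none of them a cell with Scarna17. With 8 of 14 cells lacking both, nothing is read from this.

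For Rnu11, genes specific to the minor spliceosome and the Sm genes, whose proteins U11 shares with the major spliceosome, were examined. Of 9 measured minor spliceosome genes, 4 reached 7 cells: Zcrb1 in 14 with a median of 5.59, Scnm1 in 12, Rnpc3 in 10 and Zrsr2 in 9. Snrnp25, which encodes a U11 protein, was found in 6 cells and stood highest in cell 11, at 7.96, where Rnu11 was at 0. All 7 Sm genes passed that mark and 6 of them were found in every cell, with Snrpg at a median of 9.10. The rank correlation with Rnu11 was 0.84 for Snrpb and between -0.46 and -0.16 for the other 6 Sm genes. Snrpb was highest in cell 6, at 10.13. Of 17 measured Integrator and export genes, which act in making snRNAs, 7 were detected in at least 7 cells.

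**Figure D5:**
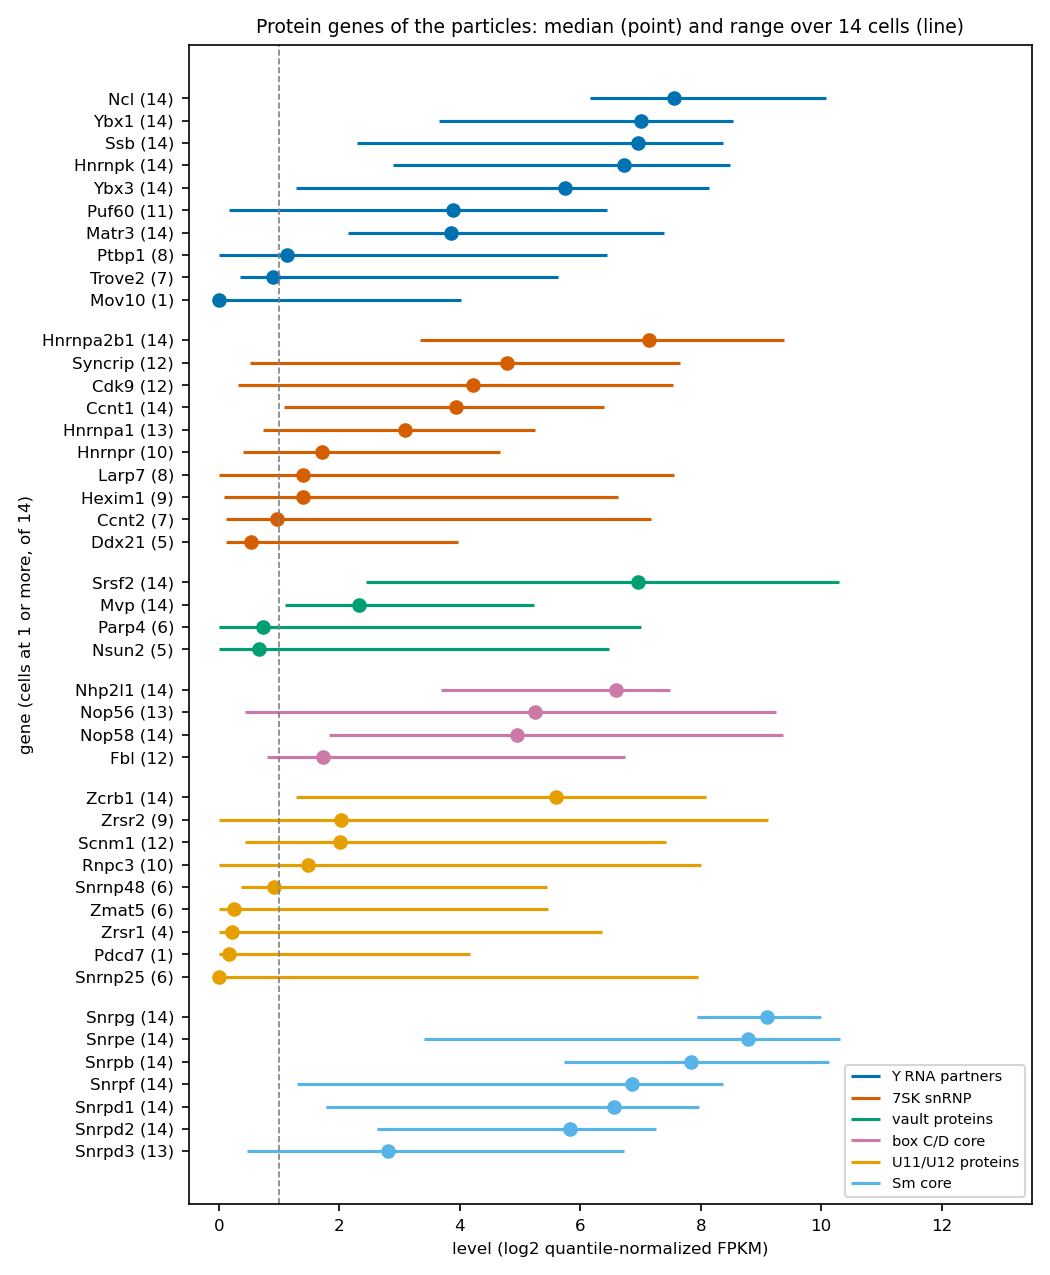
Median (point) and range over the 14 cells (line) of the level (log2 quantile-normalized FPKM) of protein genes of the Y RNA, 7SK, vault, box C/D and U11/U12 particles and the Sm ring, with the number of cells at 1 or more in brackets and the detection level dashed. Ncl, Ssb, Hnrnpa2b1, Srsf2 and the Sm genes have medians of 2.81 or more, while Trove2, Parp4 and most U11/U12 genes lie near or below 1 or 2.

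The genes most like each member were taken by rank correlation over the 14 cells, among the rows above 0 in at least 7. For Vaultrc5 they were Stx3 (0.90), Ndn (0.89) and Ttc14 (0.87), and for Rn7sk Ints2 (0.85), Ythdf2 (0.83) and Ltbp1 (0.82). For Rny1 they were Papd4, which encodes a cytoplasmic poly(A) polymerase (0.80), Msmo1 (0.79) and Rbm17 (0.79). For Scarna17 they were Dio2 (0.73), Glt8d2 and Slco2b1 (0.72 each), with 11 of the 14 cells tied at 0. Rnu11 was most like Fgf10 (0.93), Wfdc3 (0.92) and the chemokine gene Ccl8 (0.91), although Pearson's r with Fgf10 was 0.31. Wfdc3 and Ccl8 were both at 0 in cells 3, 4, 11 and 13, as was Rnu11. Rnu11 had 139 rows with a rank correlation of 0.7 or more, against 24 to 48 for the other members. Many of these genes were near or under the detection level: Fgf10 was detected in 1 cell, Dio2 in 2, Stx3 in 3 and Papd4 in 5. With Pearson's r in place of rank correlation, 3 of the 15 genes named here stayed among the 3 most like their member. For each member 8291 rows were compared (8292 for Scarna17), with median rank correlations between -0.02 and 0.03. The lowest were -0.86 for Rny1, -0.82 for Rn7sk, -0.88 for Vaultrc5, -0.72 for Scarna17 and -0.87 for Rnu11. These were close in size to the highest. With so many rows and 14 cells, no relation is read from the genes named here.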

How the data were processed

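Transcript levels in 14 single cells of 1 group were read from 1 deposited table. Per the submitters' processing notes, TopHat2, Cufflinks and build GRCm38 were used, with no versions given. The deposited log2 values were taken as log2(FPKM + 1) after quantile normalization. Both readings rest on the values: the highest was 14.58 in every column, and over the 7304 ranks above 0 in every cell the columns differed by at most 0.0246. All 14 columns were matched to samples by title. Per the labels' protocols, library preparation used the SMART-Seq v4 3' and Nextera XT kits. The first primes with oligo(dT).

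The members and gene lists were chosen with earlier results of these data known. Named genes were the members, list genes, other small RNA rows, the nearest rows on the genome and the 3 rows of highest Spearman correlation with each member. Where a symbol repeats, its first row stands for it. Exon lengths, gene types and sequences came from GENCODE M21, in which 9544 of 9558 rows had a match. Length division was undone as log2(FPKM × kilobases + 1) from the quantile-normalized FPKM, so the values before division are not recovered exactly. Copies were sought with blastn 2.17.0 and structures with RNAfold 2.7.2. Cells were divided into sets by average-linkage clustering of presence above 0, using correlation distance and a fixed number of sets. The code of the correlation ranking was run on simulated rows without ties at 0, some of them made to follow the target closely. That run checks the code only, not the ranking of the real rows. Exact intervals are Clopper-Pearson and cover counting error of cells only. Statistics used Python 3.11.15, pandas 2.3.3 and scipy 1.17.1. Alternatives were other detection thresholds, a pseudocount of 10, undone length division, ranks among protein-coding rows, Pearson's r and left-out cells; leaving out cell 6 was chosen after seeing the data.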

Additional observations from a re-analysis of the deposited data

How the results depend on the processing

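The number of protein partner genes detected in at least 7 cells followed the threshold, with 74 at an FPKM of 1, 114 above 0, 40 at an FPKM of 5 and 33 at an FPKM of 10. Counts of cells with each member, and the members' medians, moved by less than their interval or SD over the cells in the alternatives run. That mark is wide for the medians, since the SDs reached 4.84. Every member level above 0 was at least 4.38, over all thresholds tried, so the thresholds could not change the counts. Undoing the length division lowered the median of Rny1 from 8.35 to 5.22, of Vaultrc5 from 9.84 to 7.04, of Rn7sk from 8.18 to 6.60 and of Rnu11 from 5.24 to 2.57. Of the 15 genes most like a member, 4 stayed among the 3 most like their member without cells 11 and 14. No paired analysis was possible because the design holds 1 group. Depth is unknown, so a listed 0 cannot be read as absence, and quantile normalization hides differences in RNA content between cells.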

Other observations

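Long nuclear RNAs and snoRNA host genes, which unlike the small RNAs are mostly polyadenylated, had SDs over the cells from 0.90 (Gas5) to 3.36 (Snhg8). Rn7sk (2.38) and Vaultrc5 (3.00) lay within that range, and Rny1, Scarna17 and Rnu11 above it. The part of length or polyadenylation in these SDs was not tested. Of 14 measured long RNAs and host genes, 10 reached 7 cells and 4 were found in every cell. Gas5, a host gene of small nucleolar RNAs, had a median of 9.76 and ranged from 8.24 to 11.02. Neat1, the scaffold of nuclear paraspeckles, had a median of 5.20 and was highest in cell 6, at 7.68. Snhg1 and Dleu2 were detected in all 14 cells, with medians of 5.60 and 4.26.

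Genes of the polymerase III machinery, which transcribes Rny1, Rn7sk and Vaultrc5, were close to the background: 10 of 22 measured (45.5%) were detected in at least 7 cells, against 51.7% of all rows. Polr1d, a subunit shared with polymerase I, had a median of 7.21, and Maf1, a repressor of polymerase III, of 4.90. Of 15 measured genes for trimming and decay of small RNAs, 8 were detected in at least 7 cells, with the exosome genes Exosc8 and Exosc2 at medians of 5.13 and 4.81. The snoRNA AF357425 was at 13.56 in cell 5 and at 0 in all 13 other cells, and Rnu5g, a U5 gene, was detected in cells 5 and 10 only, at 7.26 and 8.73.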
